A study of Mus musculus with 6 samples.

Results

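Ion channel genes of αTC1 cells were examined with and without a small molecule inhibitor of SMNDC1. αTC1 is a mouse line of glucagon-producing α cells derived from a glucagonoma, a tumour of pancreatic islet α cells. RNA was sequenced in 6 libraries, 3 from cells given G786-1089, which the series' design text calls an inhibitor of the splicing factor SMNDC1, and 3 from cells given the solvent DMSO; the labels give no genotype change, dose or duration for either group. The genes were chosen by name: protein-coding genes whose symbols are those of the pore-forming and accessory subunits of potassium (Kcn), calcium (Cacn), sodium (Scn), HCN, acid-sensing (Asic) and TRPM channels, plus the sulfonylurea receptors Abcc8 and Abcc9. This gave 141 genes of 55487 in the counts, or of 21936 protein-coding genes. A further 2 genes fitted the name pattern but were not protein-coding and were left out.

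Electrical activity links glucose to glucagon release in α cells. The ATP-sensitive potassium (KATP) channel, built from Kcnj11 and Abcc8, sets how close the membrane lies to its firing threshold. Sodium channels carry the upstroke of the action potential, calcium channels admit the calcium that triggers granule exocytosis, and voltage-gated and calcium-activated potassium channels repolarise the cell. Background potassium channels of the 2-pore (Kcnk) family hold the resting potential, and cation channels such as HCN and TRPM depolarise it.

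Potassium channels share a short signature around the selectivity filter of the pore, and the sequences below show it in a gene that fell, Kcnk2, and in the pore gene of the KATP channel, Kcnj11. The in-frame pattern ACNNTNGGNNNNGGN, read on the coding strand, was found in 66 of 77 potassium pore genes with a coding sequence in GENCODE vM21 (85.7%). It was found in 3 of 63 other ion channel genes (4.8%) and in 709 of 21510 protein-coding genes (3.3%). Of the 14 2-pore genes, 12 held it 2 times. The windows hold 39 bases of the longest coding sequence of each gene, with the pattern in capitals. The first base of the pattern was base 388 of 1170 in Kcnj11. In Kcnk2, whose coding sequence has 1278 bases, it was base 469 in the first window and base 796 in the second.
Kcnj11: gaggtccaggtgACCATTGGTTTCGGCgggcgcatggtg
Kcnk2, first window: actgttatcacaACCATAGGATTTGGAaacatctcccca
Kcnk2, second window: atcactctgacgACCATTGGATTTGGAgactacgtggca
A match describes the letters only.

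The libraries held 59070705 to 94747943 counts, and each inhibitor library was deeper than each DMSO library. The ion channel genes took 0.0345% to 0.0397% of the counts of a library. Of all counts from 1 to 10 in the table, 78.1% were even, so a small count is not a number of independent fragments. The study's methods say that cells for both treatments of a replicate were divided at random and handled together, but no source used here ties the column letters to these sets or says that replicates were separate cultures, so the p-values measure the spread between libraries, which may be technical. The summed level of 10 α cell markers was 17600 to 19900 FPKM (fragments scaled to transcript length and library size, the authors' values) with DMSO and 2720 to 3320 with the inhibitor, nearly all of it from the glucagon gene Gcg, and 3 of 8 tested markers fell. The α cell marker Gc was at 0 in all libraries, and Gcg, Pcsk2 and Irx2 were the most abundant. Beta cell markers (9 genes, 4 tested, 0 called; Ins1 and Pdx1 at 0) summed to 21.1 to 30.6 FPKM with DMSO and 9.66 to 20.9 with the inhibitor. Delta and PP cell markers (5 genes; Sst, Hhex, Ppy and Pyy at 0) summed to 235 to 262 and 315 to 325 FPKM, and the single tested gene, Rbp4, rose. Acinar and duct markers (5 genes, 2 tested, 0 called; Cpa1 and Prss2 at 0) summed to 5.18 to 11.9 and 14.0 to 22.6 FPKM. Fibroblast, endothelial and immune markers (7 genes, 1 tested, 0 called; Col3a1, Dcn and Cdh5 at 0) summed to 4.23 to 6.25 and 6.08 to 14.2 FPKM. Neuronal markers, which endocrine cells share in part, (5 genes, 1 of 5 tested genes lower) summed to 285 to 313 and 209 to 268 FPKM. The part of these shifts in the channel results was not tested, and in bulk RNA fewer cells of a type and less RNA per cell cannot be told apart.

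With DMSO, few ion channel genes were expressed. An FPKM of at least 1 in every DMSO library was reached by 13 of 141 genes (9.22%), against 7435 of 21936 protein-coding genes (33.9%). No count in any of the 6 libraries was found for 67 ion channel genes (47.5%), against 34.9% of protein-coding genes. For independent counts, a 0 allows up to 3 counts, which is 0.0317 to 0.0508 CPM (counts scaled to the size of the library). That bound covers counting error only. Since most small counts were even, it may be higher in these libraries. A 0 is given here as not detected. Another 27 genes had counts but too few to test, and 47 were tested. The 13 expressed genes held 75.5% of the summed ion channel FPKM with DMSO, and the top 5 held 47.8%. Their median was 3.89 FPKM, against 11.8 for all protein-coding genes that passed the same level.

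**Figure D1:**
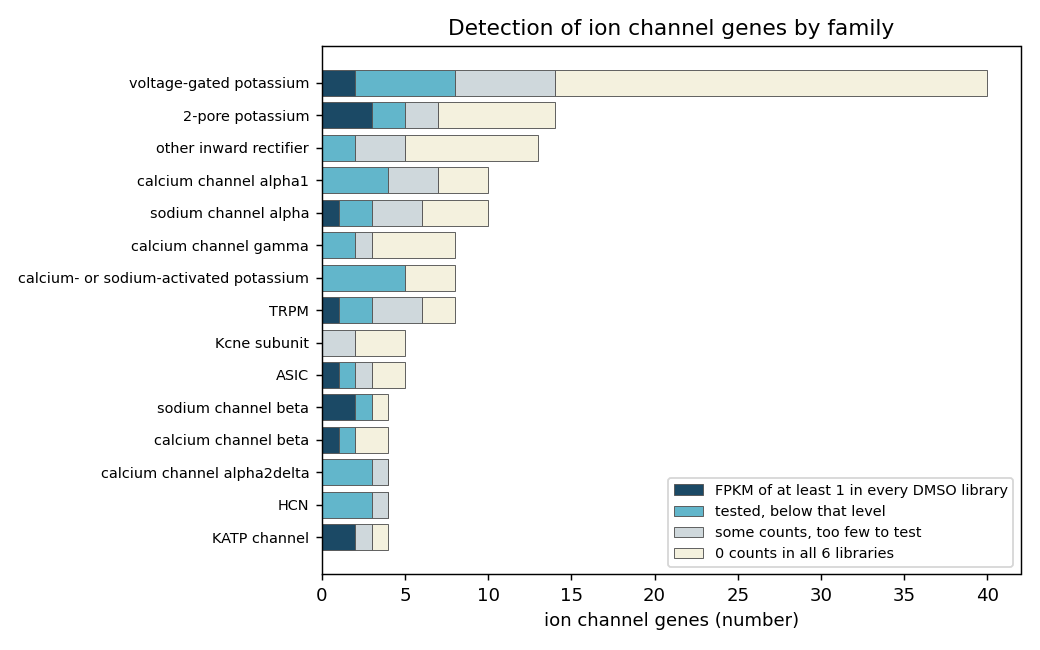
Number of ion channel genes (x axis) in each family (y axis), divided by detection in the 6 libraries. The 40 voltage-gated potassium genes include 26 with 0 counts, and the 3 2-pore potassium genes at or above 1 FPKM in every DMSO library are the most in any family.

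The highest level was that of Cacnb3, the β3 subunit of voltage-gated calcium channels, at 9.55 ± 2.02 FPKM (SD, n = 3 DMSO libraries). Next were Kcnk1, a weak 2-pore potassium channel, at 8.96 ± 2.96, and Abcc8, the sulfonylurea receptor, at 7.90 ± 0.79 FPKM. Kcnh6, of the ether-a-go-go related potassium channels, had 6.34 ± 0.48 FPKM. The DMSO libraries of Cacnb3, Kcnk1 and Abcc8 overlapped, so their order is not resolved, whereas every DMSO value of Abcc8 exceeded every one of Kcnh6. Lower levels were those of Kcnk16 at 3.93 ± 0.63, Kcnk3 at 3.89 ± 1.15, Asic2 at 3.20 ± 0.42, Kcnj11 at 3.04 ± 0.08, Trpm5 at 2.60 ± 1.35, Scn8a at 1.76 ± 0.61 and Scn2b at 1.65 ± 0.40 FPKM, and those next to each other in this order overlapped between libraries. With the inhibitor, 12 genes reached 1 FPKM in every library, and 8 genes did so in both groups.

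**Figure D2:**
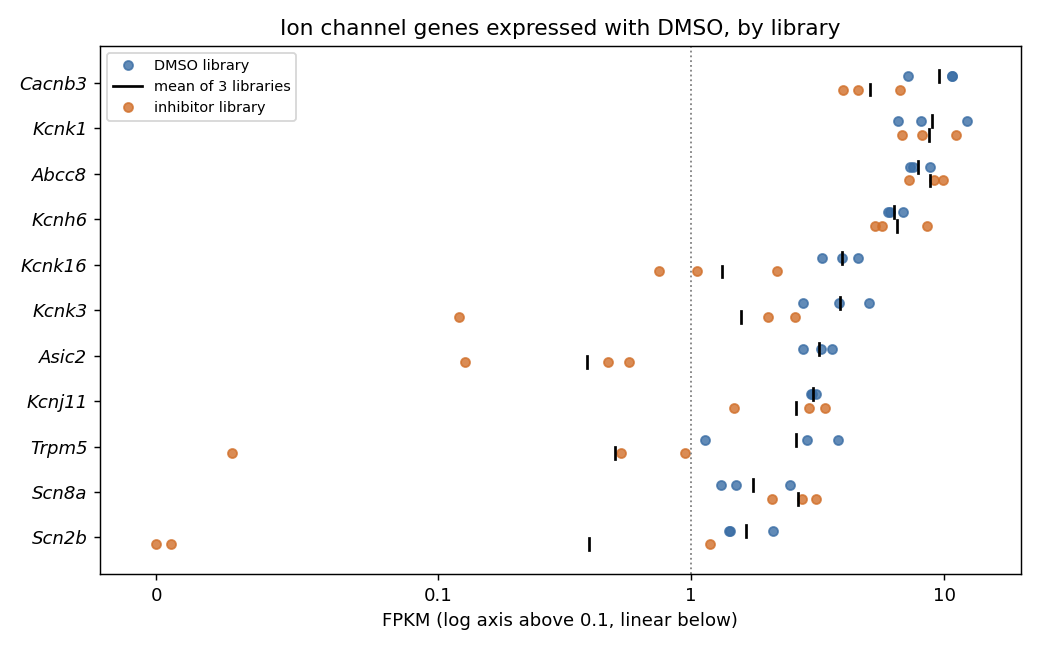
FPKM in each library (x axis, log scale above 0.1 and linear below) of 11 ion channel genes with at least 1 FPKM (dotted line) in every DMSO library (y axis). Blue points are the 3 DMSO and orange points the 3 inhibitor libraries, and black marks are means; Kcnj11 lies at 2.97 to 3.12 FPKM in the DMSO libraries, and Asic2 at 0.13 to 0.57 in the inhibitor libraries.

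Of the 47 tested ion channel genes, 5 differed between the inhibitor and DMSO, 2 higher and 3 lower (edgeR's quasi-likelihood test, p-values adjusted by Benjamini-Hochberg over 15082 genes, call at an adjusted p under 0.05). Kcnk2 and Asic2 were among those that fell, and Trpm7 and Scn3b rose. That is 10.6% of the tested members, against a background of 14.8% of all tested genes, made up of 6.98% higher and 7.8% lower. At an unadjusted p under 0.05 there were 11 members, which can be set beside 28.1% of all tested genes. The libraries of both groups did not overlap for 15 members (31.9%), against 36.7% of all tested genes. The median log2 fold change was 0.022 over the members and 0.041 over all genes, with 24 members above 0 and 23 below. With scaling by library size alone the median over all genes moved to 0.246, and the same 5 members were called. With the column letters as a replicate block, 1 member was higher and 2 were lower. For these other settings the share of all genes called was not worked out.

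The members were measured less precisely than other genes. Their median standard error (SE) was 0.817 on the log2 scale, against 0.430 for all tested genes, and their median level was 2.0 log2 CPM, against 3.2. Ranges between libraries were taken on counts not scaled for depth, with a lowest count under 3 taken as 3. The 3 DMSO libraries differed by more than 10-fold for 11 members (23.4%, against 9.61% of all tested genes). The 3 inhibitor libraries did so for 16 (34.0%, against 11.4%).

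**Figure D3:**
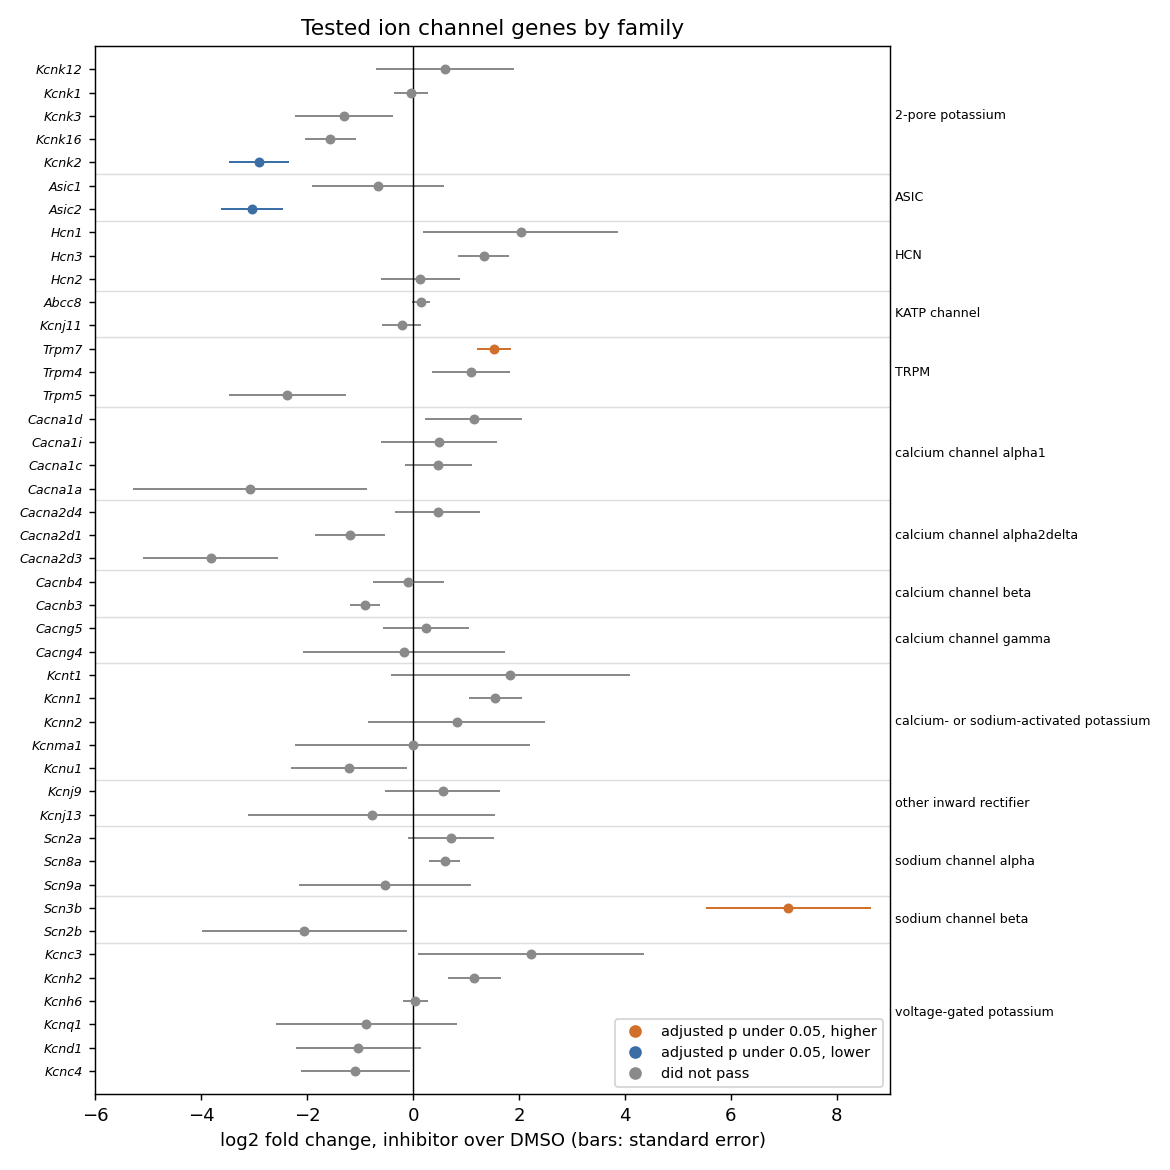
Log2 fold change of the inhibitor over DMSO (x axis) with its standard error for 44 tested ion channel genes (y axis), grouped by family. Orange and blue mark genes that rose and fell, and grey those that did not pass; Scn3b lies at 7.08 with a standard error of 1.56.

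Among voltage-gated potassium channels, Kcnh6 did not pass. It was at 23.6 ± 1.75 CPM, here also scaled between libraries by TMM factors, with DMSO and 24.3 ± 6.31 with the inhibitor (SD, n = 3 each), and its log2 fold change was 0.04 (SE 0.23, edgeR adjusted p = 0.93). Kcnh2, a relative of Kcnh6 named here after its values were seen, had 2.72 to 4.57 CPM with DMSO and 4.57 to 12.5 with the inhibitor (edgeR adjusted p = 0.194). Kcnd3, which forms an A-type channel, had 0 counts in all libraries. Neither the closely related Kcnd2 nor any of the 8 Kcna genes had a count. Kcnd1, a relative of Kcnd3 named here after its values were seen, had 6, 58 and 106 counts with DMSO. It had 50, 10 and 58 with the inhibitor, and its groups overlapped (edgeR adjusted p = 0.641).

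In the 2-pore potassium family, Kcnk2 (chromosome 1, 189207930 to 189402273 of GRCm38) fell, while Kcnk1, Kcnk3 and Kcnk16 did not pass. Kcnk2 forms TREK-1, a background channel opened by stretch, lipids and heat. It had 2.48, 4.02 and 4.21 CPM in DMSO libraries A, B and C, the letters being those of the count columns, and 0.388, 0.459 and 0.576 in inhibitor libraries A, B and C. The groups were far apart, and the log2 fold change was -2.91 (SE 0.56, edgeR adjusted p = 0.0181). With DMSO it reached only 0.78 ± 0.21 FPKM, under the level set for expression. The call was lost without inhibitor library A (edgeR adjusted p = 0.056) or B (0.0547) and without DMSO library B (0.0673) or C (0.0712), and the log2 fold change stayed between -3.12 and -2.78 with each library left out. With the column letters as a replicate block the edgeR adjusted p was 0.0698. Exons of A430027H14Rik cover 12.2% of its exon bases, and that gene had 0 counts in every library.

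None of the better-expressed 2-pore genes passed. Kcnk1 was at 21.8 ± 7.26 CPM with DMSO and 21.2 ± 5.40 with the inhibitor (log2 fold change -0.04, SE 0.31), and the groups overlapped. Its log2 fold change turned to 0.16 with scaling by library size alone. Kcnk16, an alkaline-activated channel of islet cells, had 10.3, 11.8 and 8.46 CPM with DMSO and 2.75, 5.61 and 1.94 with the inhibitor. Its groups did not overlap, but the log2 fold change of -1.57 did not pass (SE 0.48, edgeR adjusted p = 0.0793). Without inhibitor library B it passed at an edgeR adjusted p of 0.034, and DESeq2 called it with all libraries. Kcnk3, an acid-sensitive background channel, was spread widely with the inhibitor, at 8.37, 0.499 and 10.8 CPM, against 11.4, 16.0 and 20.9 with DMSO (edgeR adjusted p = 0.425).

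Both subunits of the KATP channel were expressed, and no difference passed the test. The pore gene Kcnj11 and the receptor gene Abcc8 lie 3759 bases apart on chromosome 7. Kcnj11 had 10.7, 10.3 and 10.1 CPM with DMSO and 11.7, 5.01 and 10.1 with the inhibitor, a log2 fold change of -0.22 (SE 0.37, edgeR adjusted p = 0.764). Abcc8 had 39.0, 40.2 and 46.6 CPM with DMSO and 38.8, 48.2 and 52.6 with the inhibitor, a log2 fold change of 0.15 (SE 0.17, edgeR adjusted p = 0.645). Groups of both genes overlapped. The other pair of the family, the pore gene Kcnj8 and the receptor gene Abcc9, were at 0 counts and at no more than 0.71 CPM.

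No member of the other inward rectifiers or of the calcium- and sodium-activated potassium channels passed. Kcnn1, a small-conductance calcium-activated channel, had 11.2, 3.85 and 6.99 CPM with DMSO and 15.9, 33.7 and 14.95 with the inhibitor. The groups did not overlap, with a log2 fold change of 1.55 (SE 0.50, edgeR adjusted p = 0.0926), and DESeq2 called it. Kcnu1, a pH-sensitive channel known from sperm, ranged from 2.83 to 23.3 CPM with DMSO alone. The large-conductance channel gene Kcnma1 had 0.526, 0.077 and 2.37 CPM with DMSO and 2.94, 0 and 0.012 with the inhibitor, so each group had a single high library. Kcnj13 varied from 0.016 to 4.97 CPM among the DMSO libraries, and 49.1% of its exon bases lie in exons of Gigyf2, and the counts are not split by strand. None of the 5 Kcne subunit genes had enough counts to test.

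Acid-sensing channels were represented by Asic2 (chromosome 11, 80880169 to 81968457), which fell. Asic2 is a sodium-permeable channel subunit opened by protons. It had 16.7, 15.2 and 12.8 CPM in the DMSO libraries and 2.19, 2.64 and 0.60 in the inhibitor libraries. The groups were well apart, and the log2 fold change was -3.04 (SE 0.58, edgeR adjusted p = 0.0175). Without inhibitor library A the edgeR adjusted p was 0.0529, without DMSO library A 0.0586 and without DMSO library B 0.0547, so each of these libraries was needed for the call, while the log2 fold change ran from -3.41 to -2.62. Asic1 overlapped between groups, and Asic4 and Asic5 had 0 counts.

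**Figure D4:**
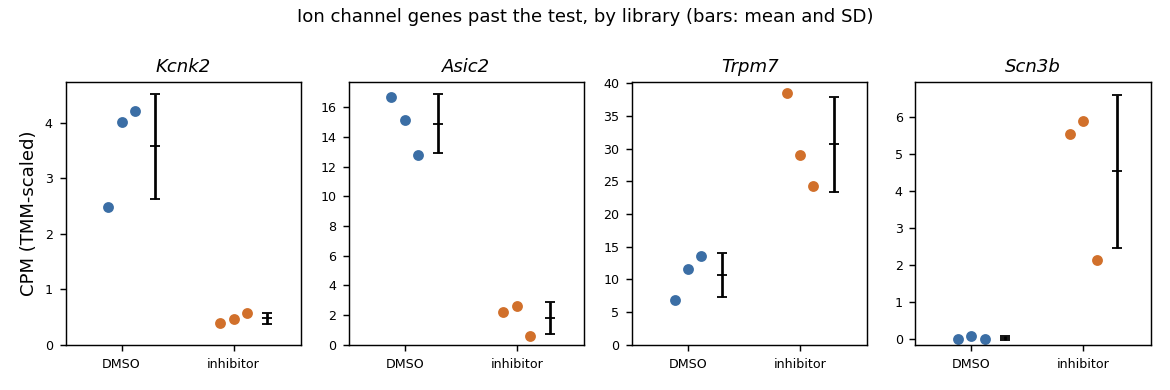
CPM (y axis, scale differing between panels) of 4 ion channel genes past the test in the 3 DMSO (blue) and 3 inhibitor (orange) libraries; black marks give the mean and SD. In each panel the libraries of the groups do not overlap, and Scn3b is at 0 in 2 DMSO libraries.

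Of the TRPM genes, Trpm7 (chromosome 2, 126791565 to 126876230) rose. TRPM7 joins a channel for magnesium, zinc and calcium to a protein kinase. It had 6.92, 11.6 and 13.5 CPM in the DMSO libraries and 38.6, 29.0 and 24.4 in the inhibitor libraries. Every inhibitor library exceeded every DMSO library, and the log2 fold change was 1.52 (SE 0.32, edgeR adjusted p = 0.0245). In FPKM it stood at 0.894, 1.49 and 1.76 with DMSO, so DMSO library A alone kept it out of the expressed genes. The call was lost without inhibitor library A (edgeR adjusted p = 0.0751) or B (0.0618) and without DMSO library A (0.0586) or B (0.0736), with log2 fold changes of 1.28 to 1.72 over the libraries left out. With the column letters as a replicate block the edgeR adjusted p was 0.0883. Trpm4 and Trpm5, cation channels opened by intracellular calcium, did not pass. Trpm5 had 12.9, 5.11 and 17.0 CPM with DMSO and 2.38, 0.120 and 4.25 with the inhibitor, without overlap. Its log2 fold change was -2.37 (SE 1.11, edgeR adjusted p = 0.222). In limma on log2 FPKM plus 1 it was called, while DESeq2 did not call it (DESeq2 adjusted p = 0.081). Trpm4 had 9.34, 3.39 and 1.36 CPM with DMSO and 11.8, 5.20 and 13.2 with the inhibitor, and the groups overlapped.

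RefSeq promoters of GRCm38.p6 (250 bases before to 50 after the start) are shown for Trpm7, Asic2 and Kcnk2. Over all members, 102 of 141 matched. These 3 are printed as examples of genes that rose or fell. Trpm7 (chr2:126876212-126876511, minus strand) has 63.7% G and C and 35 CpG dinucleotides, a ratio to the number its base composition gives of 1.16. Asic2 (chr11:81152854-81153153, minus strand, the first of 2 listed) has 65.3% G and C and a ratio of 0.50, and Kcnk2 (chr1:189402224-189402523, minus strand, the first of 4 listed) 43.0% and 0.43. The Asic2 promoter shown lies inside the gene, whose outermost start on the minus strand is at 81968457. Which start these cells use was not tested. The median was 0.445 over the 102 members and 0.39 over 27025 promoters. Capitals mark the motif ACGTG or its reverse complement CACGT, which overlap in the palindrome of Trpm7, where they begin 25 bases before and 16 bases after the start. The motif, searched on both strands, was held by 14.7% of the members' promoters and 19.7% of all promoters.
Trpm7: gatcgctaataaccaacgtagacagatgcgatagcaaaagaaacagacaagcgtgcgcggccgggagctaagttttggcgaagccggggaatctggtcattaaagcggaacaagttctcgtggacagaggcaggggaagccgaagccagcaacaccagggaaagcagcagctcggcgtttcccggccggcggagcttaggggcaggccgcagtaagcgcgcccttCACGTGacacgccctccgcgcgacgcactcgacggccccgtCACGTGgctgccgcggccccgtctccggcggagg
Asic2: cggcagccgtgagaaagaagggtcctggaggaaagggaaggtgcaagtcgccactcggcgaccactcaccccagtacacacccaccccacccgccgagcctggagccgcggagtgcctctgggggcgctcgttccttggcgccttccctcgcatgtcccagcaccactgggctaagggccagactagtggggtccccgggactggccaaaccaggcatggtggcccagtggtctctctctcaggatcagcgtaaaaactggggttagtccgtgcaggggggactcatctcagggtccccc
Kcnk2: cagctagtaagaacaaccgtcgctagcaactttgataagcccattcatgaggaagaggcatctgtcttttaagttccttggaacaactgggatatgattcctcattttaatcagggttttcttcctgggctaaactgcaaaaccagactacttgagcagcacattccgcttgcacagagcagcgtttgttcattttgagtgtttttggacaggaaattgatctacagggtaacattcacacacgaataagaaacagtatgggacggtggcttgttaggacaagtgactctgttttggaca

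Sodium channels divided into α subunits, of which none passed, and β subunits, of which Scn3b rose. Scn8a, an α subunit of neuronal sodium channels, was the single α gene expressed with DMSO. It had 17.6, 20.3 and 32.9 CPM with DMSO and 28.2, 36.6 and 42.1 with the inhibitor (log2 fold change 0.59, SE 0.29, edgeR adjusted p = 0.246), and the groups overlapped. Scn9a, an α subunit known from islet and sensory cells, had 5.89, 10.3 and 4.49 CPM with DMSO and 11.7, 0 and 2.61 with the inhibitor. Scn3a, another α subunit known from islet cells, had 1, 16 and 0 counts with DMSO and 0 in all inhibitor libraries, too few to test.

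Scn3b (chromosome 9, 40269217 to 40291618), an accessory subunit that modulates sodium channel gating, had 0, 6 and 0 counts with DMSO and 414, 590 and 186 with the inhibitor. That is 0, 0.092 and 0 CPM against 5.54, 5.89 and 2.14, with no overlap. The fitted log2 fold change of 7.08 (SE 1.56, edgeR adjusted p = 0.0272) depends on the prior count, since 2 DMSO libraries were at 0, and became 11.41 without DMSO library B, the library with the 6 counts (edgeR adjusted p = 0.0184). With any other library left out, the edgeR adjusted p was 0.0567 to 0.075. Scn2b had 7.23, 7.14 and 10.7 CPM with DMSO and 0.027, 5.97 and 0 with the inhibitor, so its level with the inhibitor came from library B. Its log2 fold change was -2.06 (SE 1.94, edgeR adjusted p = 0.558) and, without that library, -9.17 (edgeR adjusted p = 0.0103).

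Calcium channel α1 genes, which form the pore, were all low. Their 10 genes summed to 0.598 FPKM with DMSO. Cacna1c, of the L type, had 1.76, 6.03 and 2.50 CPM with DMSO and 7.01, 4.70 and 2.59 with the inhibitor, and the groups overlapped (edgeR adjusted p = 0.698). Cacna1a, of the P/Q type tied to glucagon release, had 165, 18 and 4 counts with DMSO and 27, 0 and 0 with the inhibitor (edgeR adjusted p = 0.43). Cacna1d, the other L-type gene of islet cells, had 6, 12 and 8 counts with DMSO and 4, 44 and 40 with the inhibitor. The T-type genes Cacna1g and Cacna1h had 0 counts in every library, while the third, Cacna1i, ranged from 0.197 to 6.56 CPM among DMSO libraries.

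With DMSO the 4 β genes summed to 9.97 FPKM, the 4 α2δ genes to 1.90 and the 8 γ genes to 1.24, and many single members were at or near 0. Cacnb3, at 95.8% of the β family's FPKM with DMSO, had 34.7, 23.3 and 34.3 CPM with DMSO and 21.6, 12.8 and 14.7 with the inhibitor. Its groups did not overlap, but the log2 fold change of -0.91 did not pass (SE 0.28, edgeR adjusted p = 0.082); DESeq2 and limma on log2 FPKM plus 1 called it. Cacna2d1, an α2δ subunit that brings channels to the membrane, had 9.55, 21.3 and 7.21 CPM with DMSO and 4.19, 2.30 and 10.2 with the inhibitor, with overlap. Cacna2d3, chosen here after its values were seen, had 62, 38 and 44 counts with DMSO and 8, 6 and 0 with the inhibitor (log2 fold change -3.82, SE 1.28, edgeR adjusted p = 0.0998).

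HCN channels, which carry a depolarising current at negative potentials, were led by Hcn3. It had 2.73, 8.57 and 8.50 CPM with DMSO and 20.2, 16.3 and 13.3 with the inhibitor. The groups did not overlap and the log2 fold change of 1.33 did not pass (SE 0.48, edgeR adjusted p = 0.121), though DESeq2 called it. Exons of Pklr, which had 0 counts, cover 17.1% of the exon bases of Hcn3. Hcn2 overlapped between groups, at 1.42 ± 0.92 CPM with DMSO and 1.57 ± 0.92 with the inhibitor.

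The study's methods kept genes with splicing events where the adjusted p was at most 0.1 and the log2 change at least 1 in size. With these thresholds set on the edgeR values, without a splicing step, 9 members were called (19.1%, against a background of 10.4%), 4 higher and 5 lower. Beyond the 5 called above they included Kcnn1, higher with the inhibitor, and Kcnk16 and Cacna2d3, lower. DESeq2 at an adjusted p under 0.05 called 11 members, these 9 with Cacnb3 and Hcn3. Its share over all genes was not worked out, so the 11 have no background to be set beside.

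Genes that act beside the channels were described from 3 lists. As a background for their counts, 14.8% of all tested genes passed. Of 28 auxiliary proteins of channels, 10 were tested, and 1 passed: Stac2, an adaptor of L-type calcium channels, rose with 61.1, 63.9 and 68.6 CPM with DMSO and 90.4, 118 and 114 with the inhibitor (log2 fold change 0.74, SE 0.14, edgeR adjusted p = 0.0169). The median log2 fold change of this list was 0.71, against 0.041 over all genes. It rests on the 10 tested genes, of which only Stac2 passed, and some were imprecise (SE 2.12 for Kcnab3 and 1.43 for Kcnip4). Of 27 calcium pumps, exchangers and store channels, 15 were tested, with 1 higher and 1 lower and a median of 0.019. Stim2, a sensor of calcium in the endoplasmic reticulum, fell from 96.0 ± 4.57 to 50.6 ± 0.69 CPM (log2 fold change -0.92, edgeR adjusted p = 0.003), and the inositol trisphosphate receptor gene Itpr1 rose from 1.74 ± 0.22 to 6.15 ± 2.74 CPM (1.82, edgeR adjusted p = 0.0484). Of 26 genes of the sodium pump and other cation leak channels, 25 were found in the counts and 16 were tested. Of the 16, 1 was higher and 1 lower, and the median was -0.40. Atp1b1, a β subunit of the sodium pump, rose from 1143 ± 76.5 to 1468 ± 52.9 CPM (0.36, edgeR adjusted p = 0.0141), and Tmem175, a lysosomal potassium channel, fell from 58.8 ± 14.99 to 31.3 ± 4.78 CPM (-0.91, edgeR adjusted p = 0.0478). When single libraries were left out, the edgeR adjusted p was 0.0129 to 0.019 for Stim2 and 0.0148 to 0.0692 for Stac2, whose call stood only without inhibitor library A. It was 0.0294 to 0.0533 for Atp1b1, lost without DMSO library A. It was 0.0688 to 0.147 for Itpr1, lost whichever library was left out, and 0.0294 to 0.147 for Tmem175, which kept its call only without DMSO library B; with scaling by library size alone Tmem175 had an edgeR adjusted p of 0.103.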

How the data were processed

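RNA from 6 libraries of αTC1 cells (3 with the SMNDC1 inhibitor, 3 with DMSO) was analysed. The members and gene lists were chosen with earlier results of these data known. Libraries were made with Smart-seq2 and Nextera XT, which do not keep the strand, and read from both ends. The authors deposited counts, which are whole numbers per gene without normalization, from reads aligned to GRCm38 with STAR (version 2.7.9a in the submitters' processing notes) and counted on annotated transcripts. The authors also deposited FPKM values, whose scaling between libraries is not given in the sources used here. All value columns matched a group (0 unmatched), but the column letters A to C could not be matched to replicate numbers.

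Counts were tested in R 4.3.3 with edgeR 4.0.16: filterByExpr (minimum count 10, minimum total 15), TMM factors, the quasi-likelihood test and Benjamini-Hochberg adjustment over 15082 genes. Between 59070705 and 94747943 counts per library leave counting error small except for genes with few counts. The smallest p an exact permutation test of 3 against 3 libraries can give is 0.1. FPKM served for levels between genes and, with pseudocounts of 1 or 0.1, for limma 3.58.1. DESeq2 1.42.0 and the other settings in the closing section were alternatives. Scripts were tested on simulated data. Overlaps of exons were taken from GENCODE vM21, and near-identical copies (95% over 100 bases) from blastn 2.17.0; figures were drawn with matplotlib 3.10.9.

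The named genes are each called member, the 2 with the highest DMSO FPKM in each family if at least 1, 16 genes fixed for their known role in α cells, and up to 3 called genes of each list. Some genes that these rules take are not reported here; counts include them. Splicing was not analysed here.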

Additional observations from a re-analysis of the deposited data

How the results depend on the processing

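Ion channel genes higher and lower with the inhibitor numbered 2 and 3, and genes called in the 3 other lists 5. DESeq2 gave 5, 6 and 11, and the thresholds of 0.1 and 1 on the edgeR values 4 and 5 ion channel genes. limma on log2(FPKM + 1) called 5 lower. The share of all genes called was not worked out for DESeq2, limma or the settings that follow. At least 1 count in any library left 3 list genes. Leaving out each library in turn gave 0 to 1 higher, 1 to 4 lower and 2 to 4 list genes, and without inhibitor library A 1 of the 5 remained. Scn3b, and Kcnk2 in part of the limma fits, could not be tested under stricter minimums. Columns of the same letter hardly deviated together (correlations of deviations 0.015, 0.003 and 0.025); with them as a replicate block 1 member was higher, 2 were lower and 2 list genes were called. Expressed genes numbered 13, 20 at an FPKM of 0.5 and 34 at 10 counts in every DMSO library, and 14 to 17 without 1 DMSO library.

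The log2 fold change changed sign for genes that passed in none of these settings. With library size only, Kcnk1 had 0.16 and Kcnma1 0.20. With gene length offsets, Abcc8 had -0.03, Kcnh6 -0.03 and Kcnk1 0.02. With each library left out, the values ran from -0.45 to 0.79 for Hcn2, -0.19 to 0.17 for Kcnh6, -0.46 to 0.07 for Kcnj11, -7.39 to 0.22 for Kcnj13, -0.26 to 0.25 for Kcnk1, -7.09 to 1.69 for Kcnma1 and -2.40 to 0.05 for Scn9a. The causes were not tested.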
